A study of Homo sapiens with 18 samples.

Results

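The exon parts of chromosome 5 are the probe sets of the array that carry the code 05 and measure a stretch of an exon. Members were selected on measured values: of 28935 such probe sets, 13232 (45.7%) had a mean log2 value of at least 5 over the 9 exon-level arrays and are described here. Over chromosomes 1 to 22 and X, 259419 of 552068 exon parts passed the same minimum. The array's annotation names 1 gene for 10110 members, several genes for 582 and none for 2540, and the single names cover 774 genes. The parts were read in the order of their running number, and runs of neighbours lower in PTX were looked for, so the difference between PTX and control is a description here, and nothing is read from its calls.

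The study used MDA-MB-231, a human cell line derived from a triple-negative breast cancer, and hybridised 3 arrays for each of 3 groups. In the PTX group the medium held paclitaxel at 10 nM, in the 231T group the cells had a vector that expresses TRA2A, and the last group is labelled control, with no word on an empty vector or a solvent. The description of control replicates 2 and 3 gives the line's name with another final digit, while their cell line field reads MDA-MB-231. The length of the exposure, whether 231T is 1 clone and whether replicates were separate cultures are not stated. The p-values therefore measure only the spread between these arrays, which may be technical, and 3 arrays a group limit the precision.

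Paclitaxel binds microtubules, keeps them from disassembling and so disturbs the mitotic spindle. TRA2A is an SR-like protein that binds exonic enhancers in pre-mRNA and promotes the inclusion of exons. The array reads each stretch of a transcript with its own probes, so the parts of 1 gene can be set beside each other, although the levels of different parts are not on a common scale.

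No sequence of an exon part was available, and the promoters of the genes with the leading runs are shown in its place because their parts lay in common runs. Each is the 250 bases before the annotated start in RefSeq, build GRCh38.p14, printed 5′ to 3′ on the gene's own strand, with TGACG and its reverse complement CGTCA, the core of the cyclic AMP response element, in capitals. DUSP1 lies on the minus strand (chr5:172771196-172771445), GPX3 on the plus strand (chr5:151020341-151020590) and DDX46 on the plus strand (chr5:134758529-134758778).
DUSP1: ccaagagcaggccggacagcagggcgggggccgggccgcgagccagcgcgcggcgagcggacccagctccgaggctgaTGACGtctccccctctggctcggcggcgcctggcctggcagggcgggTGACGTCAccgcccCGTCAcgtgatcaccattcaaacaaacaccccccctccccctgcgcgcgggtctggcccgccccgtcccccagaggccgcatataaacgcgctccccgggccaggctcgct
GPX3: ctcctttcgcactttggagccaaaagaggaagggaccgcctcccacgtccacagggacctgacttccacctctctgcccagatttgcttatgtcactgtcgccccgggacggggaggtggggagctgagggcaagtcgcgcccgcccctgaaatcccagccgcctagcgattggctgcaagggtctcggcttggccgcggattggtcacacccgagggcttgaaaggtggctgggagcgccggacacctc
DDX46: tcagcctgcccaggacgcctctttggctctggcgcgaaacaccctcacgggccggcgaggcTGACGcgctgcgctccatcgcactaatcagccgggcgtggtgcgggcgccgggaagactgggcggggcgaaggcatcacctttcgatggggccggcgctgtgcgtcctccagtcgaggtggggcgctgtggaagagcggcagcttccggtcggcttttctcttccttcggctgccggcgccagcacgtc
On both strands, the DUSP1 window held 4 matches to TGACG, of which a pair overlap in TGACGTCA, the DDX46 window held 1 and the GPX3 window held 0. Of 35116 promoter windows of this length, 21.2% held at least 1 match and 4.76% held 2 or more. The GC box GGGCGG occurred 4 times in the DUSP1 window and 1 time in each of the others. Of all windows, 42.6% held at least 1 and 24.3% held 2 or more. The letters TATAAA occurred 1 time in the DUSP1 window and 0 times in the others, against 10.7% of all windows.

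Several facts of the series bear on every value. The exon-level and gene-level tables share 2995 rows; in these the 231T values are identical to within 1e-04 on all 3 arrays in 2995 rows, and the PTX and control values are identical in 0. Among the 1437 shared exon parts, PTX values in the exon-level table differ from those in the gene-level table by a median of 0.14 with an SD of 0.34 between rows, and control values by 0.11 with an SD of 0.33, whereas the offset of PTX minus control has an SD of 0.13. Among the 93 shared exon parts of chromosome 5 the median offset was -0.01 in PTX (SD 0.32) and 0.01 in control (SD 0.33), with an SD of 0.14 for PTX minus control. The 231T values were thus the same in both tables and those of the other groups were not. How the arrays were combined in processing is not given. A 231T difference in a single exon part may carry an offset of its probes that replicates cannot show. Gene-level values, another summary of the same samples, therefore stand beside it for many of the genes named. The deposited median over all exon parts was 4.98, 5.08 and 5.01 on the PTX arrays, 4.60, 4.59 and 4.64 on the 231T arrays and 5.02, 4.98 and 5.02 on the control arrays. Each array was centred on that median, so all values below are log2 values relative to it and can be negative. Means of members as deposited reached 19.91, higher than RMA of scanner intensities usually gives, so the scale of the levels is uncertain, and with it the size of differences. The gene-level row of TRA2A, the expressed gene, had 5.34, 5.38 and 5.06 in 231T against 2.35, 3.04 and 2.81 in control, and 4.24, 3.57 and 3.45 in PTX.

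The 2 parts just outside the minimum had means of 4.9997 and 4.9998 and belong to CCDC125 and PURA, and the 2 just inside, which have no gene name, had 5.0001 and 5.0004. The mean over all arrays does not place every group above 5: 378 members had a mean below 5 in PTX, 1412 in 231T and 441 in control. Another probe set had identical values for 364 members. The running number follows gene order. Of the 9181 members whose gene has a strand in RefSeq, those up to number 15688 all belong to plus-strand genes and those after it to minus-strand genes, and the 1440 members above number 30550 have no gene with a strand. Neighbouring numbers are therefore mostly neighbouring parts of 1 gene, and members of a run are not independent replicates.

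In PTX, a small set of genes had runs of lower exon parts, among them DUSP1, GPX3 and CYFIP2. A member was counted where it was lower by at least 1 on the log2 scale with all 3 PTX arrays below all 3 control arrays. This held for 449 members (3.39%), against 4.83% of all exon parts tested. The mirrored count of higher members was 310 (2.34%), against 2.23% of all exon parts. In the limma fit 25 members were lower (0.189%, against 0.313% of all exon parts) and 5 were higher (0.0378%, against 0.0798%). Since the PTX difference chose what is looked at, nothing is read from these shares. Runs of at least 3 neighbouring members lower by this measure numbered 33, held 137 of the 449 members and in 6 cases held a part that limma called. Of these runs, 25 lay wholly in a single named gene, 1 held a DUSP1 part and unnamed parts, 2 lay in parts with several gene names and 5 had no name. Per 1000 members tested there were 2.49 such runs on chromosome 5, the fewest among 23 chromosome codes, against 7.65 on chromosome 10. Without PTX replicate 1 the number of lower runs was 80 in place of 33, and higher runs numbered 7 in place of 15. Without PTX replicate 2 there were 22 lower and 51 higher runs. Higher runs also numbered 28 without PTX replicate 3 and 35 without control replicate 2. The centred median over members was 2.72, 2.11 and 2.37 on the PTX arrays, against 2.35, 2.46 and 2.36 on the control arrays. PTX replicate 1 thus lay above, and PTX replicate 2 below, all control arrays.

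DUSP1 encodes a dual-specificity phosphatase that switches off MAP kinases. Its run held 6 parts, numbered 28431 to 28436, with a median difference of PTX minus control of -3.83. The first, number 28431, had 6.47, 5.04 and 4.87 in PTX and 3.49, 3.64 and 2.8 in 231T, against 10.3, 10.09 and 9.9 in control. Number 28432 had 8.31, 8.81 and 9.51 in PTX and 8.69, 8.53 and 8.67 in 231T, against 12.63, 12.63 and 12.64 in control. In both parts all PTX and 231T arrays lay below all control arrays by 3 or more. The other 4 parts of the run had PTX minus control differences of -3.90, -3.12, -3.93 and -3.59 and did not overlap either. The next DUSP1 part, number 28444, lay lower in PTX by under 1, with 1.16, 0.62 and 1.17 in PTX against 2.22, 1.77 and 1.91 in control. Number 28445, the last DUSP1 member, was again lower in PTX, with a difference of -3.31. It opened a further run of 4 parts, of which the others have no gene name. Over its 8 members the gene had a median difference of -3.67 in PTX, the largest in size among 616 genes with at least 3 members. Its 4 junction probe sets, which read the joins between exons, had a median difference of -2.92. In the gene-level table the PTX minus control difference was -2.68.

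DUSP1 was lower in 231T as well. Both comparisons share the control arrays, so these are values side by side and not separate evidence. Of the 8 members 7 fell in 231T by limma over all probe sets tested, and number 28444 had a difference of 0.37 (adjusted p = 0.336). Number 28431 fell by 6.79 (SE 0.43, adjusted p = 4.08e-05) and number 28436 by 2.0 (adjusted p = 0.000616). At gene level DUSP1 fell by 2.32 (SE 0.16, adjusted p = 7.62e-05).

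GPX3 encodes the secreted glutathione peroxidase, which reduces peroxides outside the cell. Its run held 9 of the 11 GPX3 members, numbered 12067 to 12079, with a median difference of PTX minus control of -1.69 and a range of -2.06 to -1.38. Limma called 0 of these 9 parts in PTX, against all 6 parts of the DUSP1 run. Number 12071 had 9.0, 7.44 and 9.35 in PTX and 10.5, 10.42 and 11.57 in 231T, against 10.61, 10.31 and 11.03 in control. Number 12075 had 5.91, 6.57 and 7.33 in PTX and 3.39, 3.68 and 3.44 in 231T, against 8.22, 7.60 and 8.38 in control. The PTX arrays thus lay below control in both parts, while 231T overlapped control in the first and lay below PTX in the second. Within the run, 2 parts fell in 231T, number 12075 by 4.56 (adjusted p = 9.46e-05) and number 12072 by 2.97 (adjusted p = 0.000574). The other 7 parts had 231T differences of -1.24 to 0.30 and did not pass. At gene level GPX3 had -0.78 in PTX and -0.29 in 231T (adjusted p = 0.19). The 2 GPX3 members before the run, numbers 12057 and 12063, had PTX differences of 0.17 and -0.42. Their 231T differences were -1.67 (adjusted p = 0.0462 by limma) and 0.61 (adjusted p = 0.0689). The 4 junctions of GPX3 had median differences of -1.88 in PTX and -1.29 in 231T, where 2 were called lower.

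The longest run by number of parts, 10 parts numbered 15738 to 15747, lies in entries that name more than 1 gene and is left unnamed. Its median difference was -1.68 in PTX, with run medians of 3.54 in PTX, 4.46 in 231T and 5.02 in control. PTX replicate 2 was the lowest of the PTX arrays in each of its parts, as in number 15740, with 4.25, 2.23 and 4.93 in PTX and 5.19, 5.28 and 3.77 in 231T, against 6.51, 5.33 and 5.94 in control. Without PTX replicate 2 the median difference of the run was smaller in size, at -1.10. By limma, 0 of its parts were called in PTX and 2 fell in 231T.

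**Figure D1:**
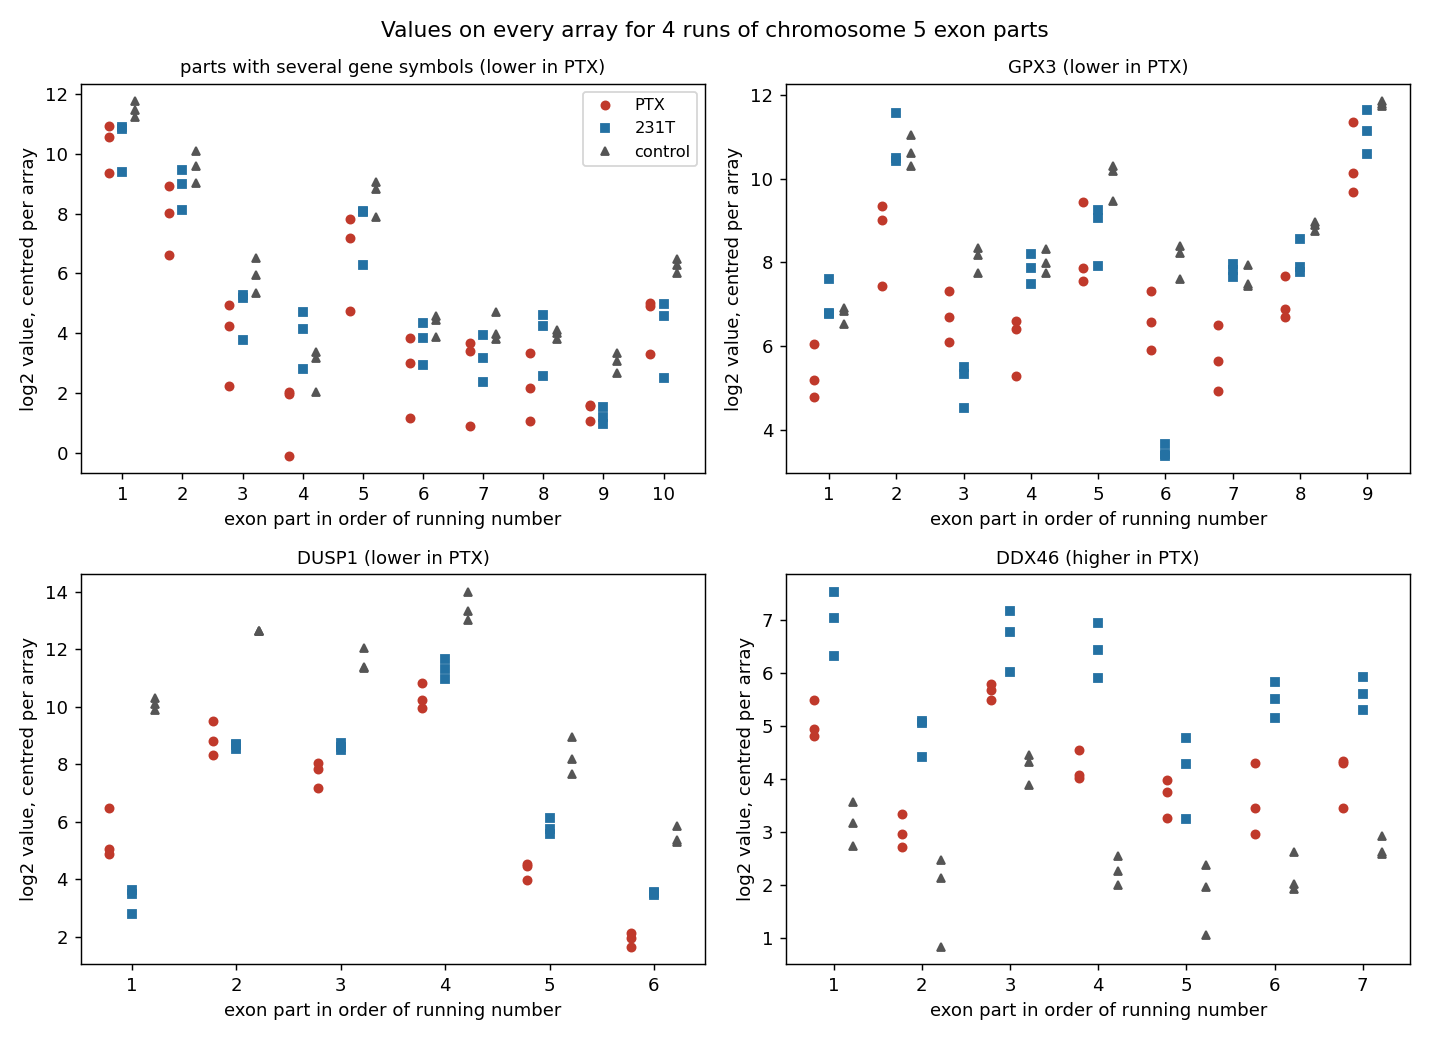
Centred log2 values (vertical axis) of every part in the 3 longest runs lower in PTX (ties by the larger median difference) and the longest run higher in PTX, in order of running number (horizontal axis), with 1 point per array for PTX (circles), 231T (squares) and control (triangles). In DUSP1 both PTX and 231T lie below control in all 6 parts, in GPX3 the 231T arrays lie below PTX in numbers 12072 and 12075, and in DDX46 the 231T values are the highest in 6 of 7 parts without overlap.

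The remaining runs lower in PTX had 3 to 6 parts. Runs of 6 parts lay in PLPP1, a lipid phosphatase of the plasma membrane (median difference -1.52 in PTX, -2.25 in 231T), and PPIC, a cyclophilin (-1.41 and -1.62). Runs of 5 parts lay in ERGIC1, a protein of the compartment between the endoplasmic reticulum and the Golgi (-1.54 and -2.38), among others. CCNG1, cyclin G1, had 1 of these (-1.30 and -1.16). ARHGEF28 had another (-1.49 and 0.32) and a run of 3 parts (-1.16 and -0.42), with 0 parts called in 231T in either. CYFIP2, a subunit of the actin-regulating WAVE complex, held 4 separate runs with median differences of -1.34 to -1.93 in PTX and -1.47 to -3.41 in 231T. At gene level the 231T differences were -1.18 in PLPP1, -1.01 in PPIC, -1.03 in ERGIC1 and -0.97 in CYFIP2. CCNG1 had -0.63 and ARHGEF28 had 0.20 at that level. LOX, which crosslinks collagen, had a run of 3 parts with medians of 8.03 in PTX and 11.39 in 231T, against 9.67 in control, so it was lower in PTX and higher in 231T. The median difference of 231T minus control was negative in 31 of the 33 runs and at most -1 in 23, and as both differences share the control arrays these are values side by side and not separate evidence.

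Runs higher in PTX numbered 15, held 58 members and lay in 11 named genes, with a part called by limma in 3 of the runs. Their 231T differences are set beside those of PTX, but both share the control arrays, so their common sign is no separate evidence. The longest, 7 parts, lay in DDX46, an RNA helicase of the early spliceosome. Its median difference was 1.44 in PTX and 3.04 in 231T, and number 9240 had 4.55, 4.03 and 4.07 in PTX and 6.95, 6.43 and 5.91 in 231T, against 2.26, 2.01 and 2.55 in control. In that part no array of one group overlapped those of another. A further pair of RNA-binding proteins was in this set: HNRNPH1 with 3 runs (median differences of 1.38 to 2.0 in PTX and 1.35 to 2.10 in 231T) and HNRNPAB with 1 (1.17 and 2.67). SLC12A2, a sodium, potassium and chloride cotransporter, had 2 runs (1.42 and 1.26 in PTX, 3.47 and 3.42 in 231T), and IL6ST, the shared signalling receptor of the interleukin-6 family, had 1 (1.33 and 3.10).

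In 231T, exon parts of chromosome 5 were called higher, on the centred values, more often than those of any other chromosome code. Limma over all exon parts and junctions, with Benjamini-Hochberg adjustment, called 3310 members higher (25%), against 19% of all exon parts, the first of 23 codes in a range of 11.9% on chromosome 22 to 25%. It called 1520 lower (11.5%), against 15.6% of all exon parts, rank 21 of 23, with the highest share, 24.4%, on chromosome 19. With a difference of at least 1 also required, 3139 members were higher (23.7%, against 17.4%) and 1297 lower (9.80%, against 13.4%). The median difference over members was 0.26 and over all exon parts 0.04. The mean as deposited reached 5 in 231T alone for 139 members, of which 114 were called higher. Without these, 24.4% of members were called higher, against 18.5% of all exon parts. A mean below 5 in 231T with one of at least 5 in control held for 1359 members, and the reverse for 388. The lower calls were not recounted without the 1359. Junctions of chromosome 5 had 19.7% called higher, against 16.8% of all junctions. This direction depends on how the arrays are scaled. As deposited, 2322 members were called higher and 2910 lower. Higher calls then made 44.4% of all calls in place of 68.5%, and the median over members was -0.14, against -0.36 over all exon parts. With quantile normalization 3132 were called higher and 1691 lower (64.9% higher), and the median over members was 0.17, against -0.02 over all exon parts. Between PTX and 231T, 1290 members were higher in PTX (9.75%, against 12.5% of all exon parts) and 3201 lower (24.2%, against 19.3%). That direction turned round as deposited too, with 2744 higher in PTX and 2169 lower.

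The median over members was 2.96, 2.95 and 2.63 on the 231T arrays, against 2.35, 2.46 and 2.36 on the control arrays, which do not overlap. The difference between the groups was 0.45 (SE 0.13, adjusted p = 0.0352 by limma over 23 codes), higher in 3 of 3 arrays, and the only one of 23 codes with an adjusted p under 0.05. Chromosomes 18 and 2 came next with 0.37 and 0.36 (both adjusted p = 0.0735), differences that lie within 1 SE of that of chromosome 5, so its place at the top is a rank and no tested difference between chromosomes. The call was lost without centring, where the difference was 0.06 (adjusted p = 0.694), and in the gene-level table, where it was 0.19 (adjusted p = 0.245). It was also lost on leaving out any of PTX replicate 3, 231T replicates 1 and 2, and control replicates 1 and 3, with differences of 0.40 to 0.45. For PTX the difference was 0.01.

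**Figure D2:**
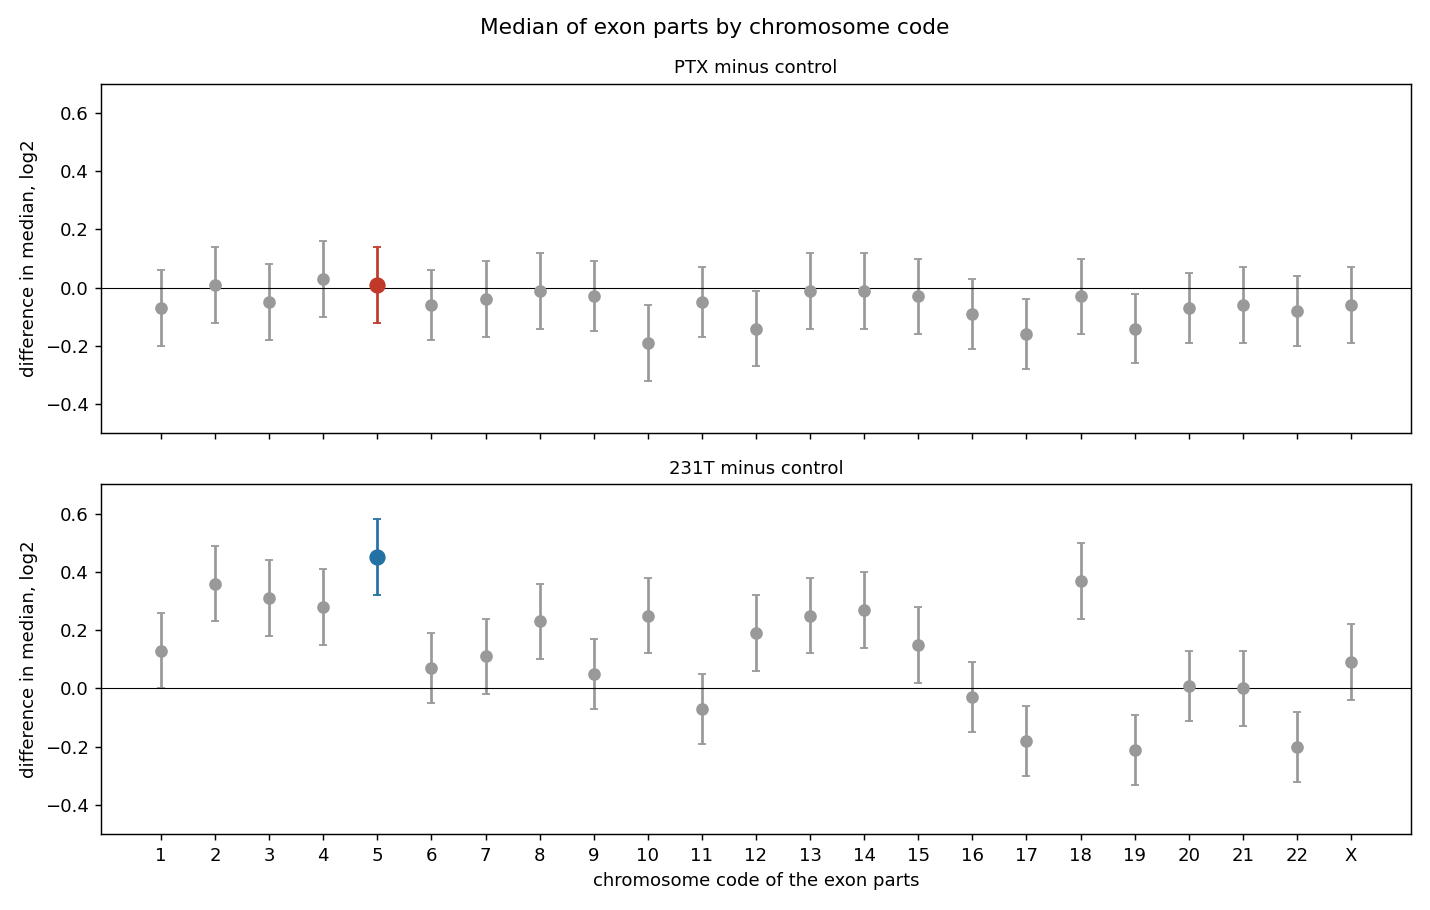
Difference in the median of exon parts (log2, vertical axis) for each chromosome code (horizontal axis), PTX minus control above and 231T minus control below, with bars of 1 SE from the limma fit of 3 arrays a group. Chromosome 5, the coloured point, is at 0.01 in PTX and at 0.45 in 231T, the highest of the codes there.

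Along the running number, higher windows in 231T were spread over the chromosome and broken by a few lower ones. Of 132 windows of 100 neighbouring members, limma called 56 higher in 231T (42.4%, against 22.4% of the windows of all codes) and 10 lower (7.58%, against 16.8%). As deposited, without centring, 24 windows were higher and 32 lower. Higher windows numbered 32 without 231T replicate 1, 28 without 231T replicate 2, 32 without control replicate 1 and 30 without control replicate 3, and lower windows numbered 6 without control replicate 3. The highest, window 38 with DDX46 and TGFBI, had medians of 3.22, 2.29 and 2.46 in PTX and 3.62, 3.89 and 3.16 in 231T, against 1.8, 2.06 and 1.99 in control (231T minus control 1.61, adjusted p = 0.00175). The lowest, window 40 with KDM3B, REEP2, EGR1 and CTNNA1, had 5.16, 5.48 and 4.75 in 231T, against 6.15, 6.1 and 6.14 in control (-1.0, adjusted p = 0.00445). In PTX the window differences ran from -0.80, in window 111 with DUSP1, STC2 and NOP16, to 0.71 in window 38. Windows lower in PTX and called lower in 231T included window 40 (-0.57 in PTX) and window 51 with CYFIP2 and LARP1 (-0.58 in PTX, -0.93 in 231T, adjusted p = 0.00437).

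**Figure D3:**
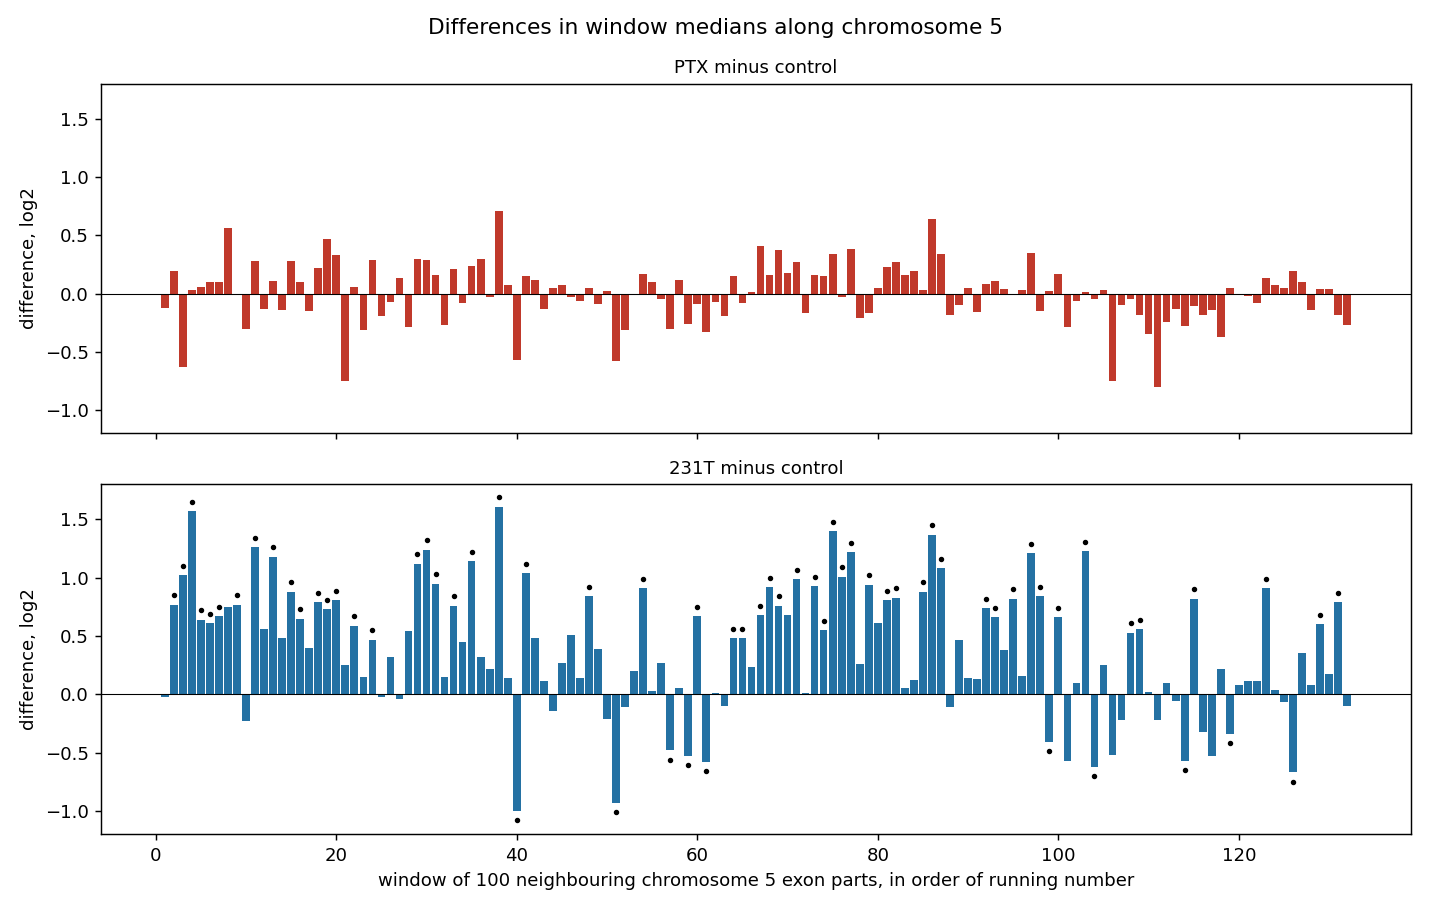
Difference in the median of each window of 100 neighbouring chromosome 5 exon parts (log2, vertical axis) in order of running number (horizontal axis), PTX minus control above and 231T minus control below, with black dots on the windows called in 231T by limma. Higher windows in 231T occur throughout, 56 of 132 on the centred values (24 higher and 32 lower as deposited), and PTX stays between -0.80 and 0.71.

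Long runs of parts within single genes rose or fell in 231T. Differences between genes accounted for 50% of the variance of the 231T differences over 9900 members of 616 genes with at least 3 members, and the SD within a gene was 0.95, against 1.3 over these members. The median over a gene's members was higher by at least 1 for 127 of the 616 genes and lower by at least 1 for 31. Called members lay in 336 higher runs, which held 1776 of the 3310 higher members, and in 108 lower runs. NUP155, a structural protein of the nuclear pore, had the longest higher run, 29 parts numbered 17931 to 17964, with a median difference of 3.30 and a range of 2.10 to 4.35. Its first part had 5.71, 4.87 and 5.12 in PTX and 8.47, 7.86 and 7.06 in 231T, against 5.19, 5.25 and 5.35 in control (231T minus control 2.53, adjusted p = 0.0011). Its last part had 6.37, 5.29 and 5.06 in PTX and 9.01, 9.82 and 9.71 in 231T, against 5.08, 5.51 and 5.34 in control (4.20, adjusted p = 0.000139). In both, the 231T arrays lay above all others, and of the gene's 43 members 41 rose. At gene level NUP155 rose by 2.93 (adjusted p = 0.00059), and its 36 junctions had a median difference of 2.67.

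Next in length came runs in TARS1, the threonyl-tRNA synthetase (28 parts, median difference 2.98, gene level 2.47, adjusted p = 0.00112), WDR36, a factor of ribosome assembly (23 parts, 3.01, gene level 2.12), and TNPO1, an import receptor of the nucleus (20 parts, 3.08, gene level 2.11). CSNK1A1, casein kinase 1 alpha, followed with 18 parts (2.53, gene level 1.74). In PTX the same runs had median differences of 0.18, 0.29, 0.63 and 0.17. CCT5, a subunit of the chaperonin that folds actin and tubulin, had gene medians of 10.11, 9.37 and 8.10 in PTX and 11.14, 11.29 and 11.40 in 231T, against 8.42, 8.85 and 8.10 in control. All 231T arrays lay above the rest, and PTX overlapped control. At gene level CCT5 rose by 2.0 in 231T (adjusted p = 0.00113 by limma).

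The longest lower run in 231T lay in ANXA6, a calcium-dependent membrane-binding annexin, with 12 parts numbered 27072 to 27086 and a median difference of -1.46. Its first part had 9.01, 9.34 and 9.59 in PTX and 7.95, 8.14 and 8.72 in 231T, against 9.61, 10.05 and 10.33 in control (231T minus control -1.72, adjusted p = 0.003). Its last part had 8.33, 8.14 and 8.19 in PTX and 7.55, 7.13 and 7.99 in 231T, against 8.83, 8.99 and 9.0 in control (-1.39, adjusted p = 0.00456). Both groups lay below control in these parts, and at gene level ANXA6 fell by 1.26 in 231T (adjusted p = 0.000234). REEP2, a membrane-shaping protein of the endoplasmic reticulum, had the lowest median difference of 231T minus control, with gene medians of 2.78, 2.87 and 3.9 in PTX and 1.7, 1.78 and 1.81 in 231T, against 4.53, 4.53 and 4.48 in control. The median difference over its exon parts was -2.61, and its gene-level row fell by 0.78 (adjusted p = 0.00165).

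**Figure D4:**
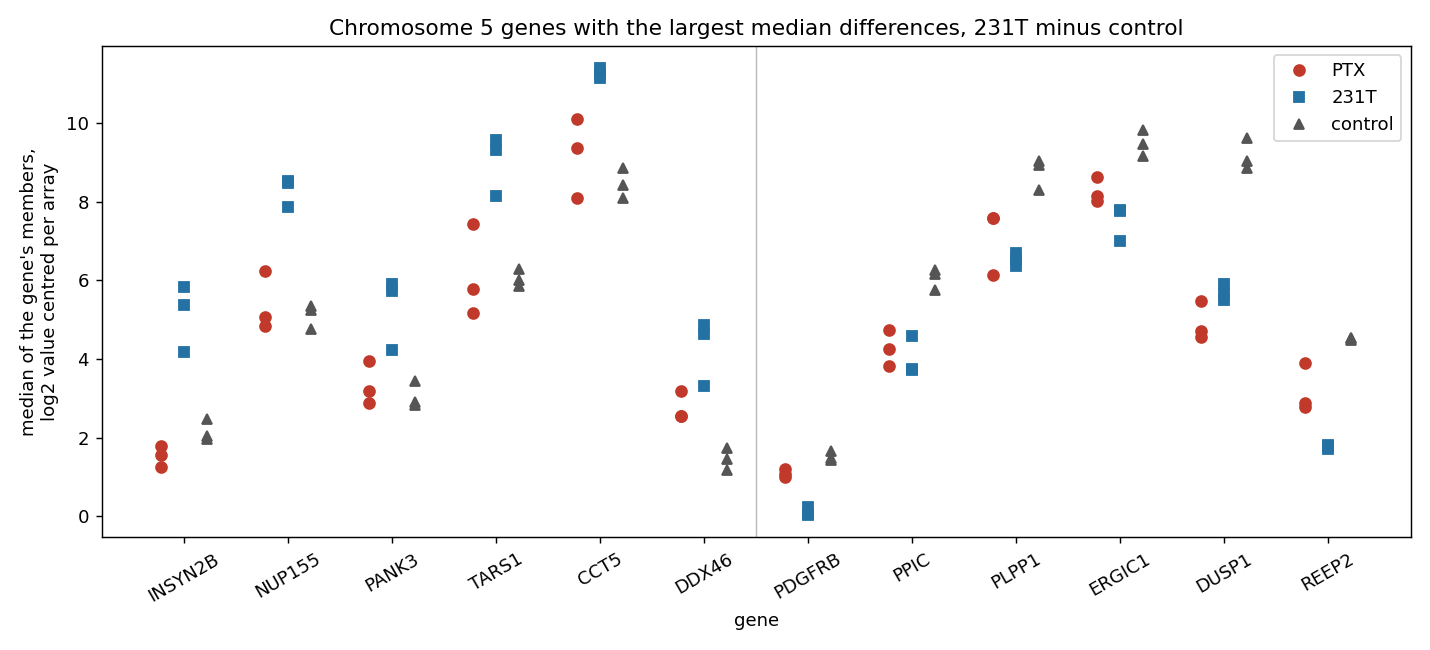
Median over the members of each gene (centred log2 value, vertical axis) on each array for the 6 genes with the highest and the 6 with the lowest median difference of 231T minus control (horizontal axis), with PTX as circles, 231T as squares and control as triangles. The 231T arrays lie above all control arrays in INSYN2B to DDX46 and below them in PDGFRB to REEP2. PDGFRB lies near the array medians in 231T, at 0.03 to 0.23, and has no gene-level value.

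The single parts with the largest 231T differences were 2 higher ones without a gene name and 2 lower ones in DUSP1 and SUB1. Number 33608, unnamed, had 8.95, 9.99 and 8.75 in PTX and 14.14, 14.56 and 15.25 in 231T, against 8.72, 7.64 and 8.04 in control (231T minus control 6.52, SE 0.44, adjusted p = 4.91e-05). Number 35223, also unnamed, had -0.33, -1.32 and 0.14 in PTX and 3.82, 4.46 and 5.18 in 231T, against -1.45, -0.74 and -1.31 in control, a difference of 5.65. Its mean as deposited was below 5 in PTX and in control, so it met the minimum through 231T alone, and its rise and its rank follow in part from that selection. The largest falls were DUSP1 number 28431 and number 1425 of SUB1, a transcriptional coactivator that binds single-stranded DNA. The SUB1 part had 14.95, 14.80 and 14.90 in PTX and 9.15, 8.09 and 8.52 in 231T, against 14.91, 14.92 and 14.89 in control. As deposited, its PTX and control values lay near 19.91, the highest mean of any member. Whether the top of the scale limits them was not tested. The part fell by 6.32 in 231T (SE 0.30, adjusted p = 1.51e-05 by limma), while the median over the 25 SUB1 members was -0.23 and the gene-level row had 0.13 (adjusted p = 0.648). The neighbouring SUB1 part number 1424 had 13.02, 13.32 and 13.76 in 231T, against 14.25, 14.27 and 14.19 in control (adjusted p = 0.072). Whether the way the 231T arrays were processed has a part in such single-part values was not tested.

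Set against the gene-level table, 394 genes with at least 3 members had a row of their own. The exon-part median and the gene-level difference of 231T minus control had the same sign in 366 of them, with an SD of 0.34 between the measures. Of the 139 genes whose exon-part median was at least 1 in size, 139 had the same sign and 132 were called at gene level. The tables are summaries of the same samples, with identical 231T values in the rows they share. Like signs in both are therefore no separate evidence. In the gene-level table as a whole, 234 of 841 chromosome 5 transcript clusters rose in 231T (27.8%, against 23.7% of all clusters) and 155 fell (18.4%, against 21.3%). For PTX the SD between the measures was 0.16.

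**Figure D5:**
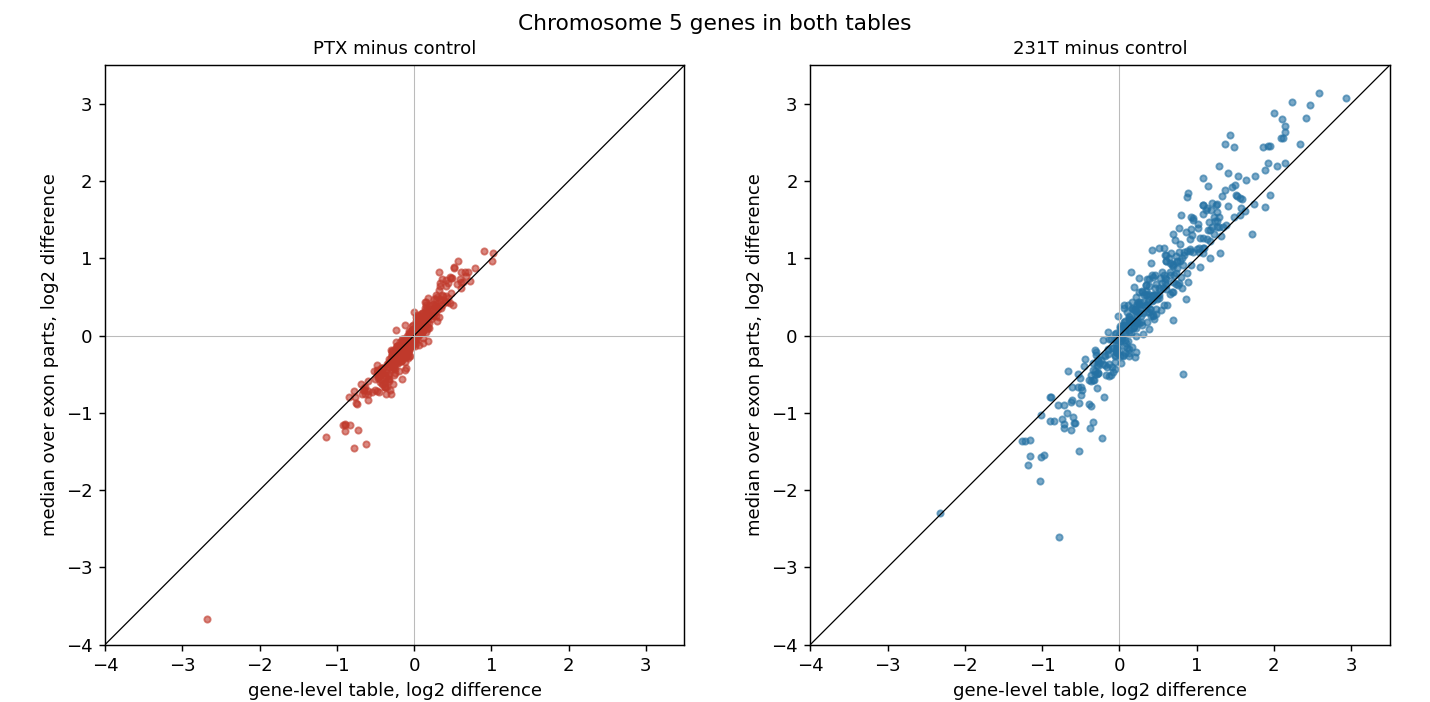
Difference per chromosome 5 gene in the gene-level table (log2, horizontal axis) and as the median over its exon parts (log2, vertical axis), PTX minus control on the left and 231T minus control on the right, with the line of equal values. DUSP1 is the lowest point on the left, at -2.68 and -3.67, and REEP2 lies far below the line on the right, at -0.78 and -2.61.

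Groups of chromosome 5 genes, listed with earlier results of these data known, are given by their counts of members called in 231T. The background was 19% higher and 15.6% lower over all exon parts, and 25% and 11.5% over chromosome 5. Splicing factors had 244 members, of which 115 rose (47.1%) and 27 fell (11.1%), with a median difference of 1.06, against 0.04 over all exon parts. HNRNPH1 held 37 and DDX46 held 33 of the 115. DDX46 rose by 2.42 at gene level (adjusted p = 0.00059), HNRNPAB by 1.95 (adjusted p = 0.000448) and HNRNPH1 by 1.33 (adjusted p = 0.00112). DDX41, a helicase that binds the late spliceosome and also senses DNA, fell by 0.90 (adjusted p = 0.000588). SREK1, an SR-related splicing regulator, rose by 0.88 (adjusted p = 0.0167). In PTX the median over the splicing members was 0.22, with 47 members higher by at least 1 without overlap (19.3%, against 2.23% of all exon parts) and 3 lower (1.23%, against 4.83%). HNRNPH1 held 22 and DDX46 held 19 of these 47. Since the PTX difference chose what is looked at, nothing is read from the PTX shares of this or the other lists.

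Genes of mitosis and the cell cycle had 332 members, of which 115 rose (34.6%) and 32 fell (9.64%) in 231T, with a median difference of 0.63. PLK2, a polo-like kinase, rose by 2.34 at gene level (adjusted p = 0.000606), CENPK, a protein of the inner kinetochore, by 2.14 (adjusted p = 0.000219) and SKP2, which targets cell-cycle inhibitors for degradation, by 1.59 (adjusted p = 0.00332). CDC23 rose by 1.31 at gene level (adjusted p = 0.012 by limma). KIF20A, a kinesin of cytokinesis, fell by 1.16 (adjusted p = 0.0141) and PTTG1, securin, by 0.88 (adjusted p = 0.00334). CCNB1, cyclin B1, had a gene-level difference of -0.67 in 231T (adjusted p = 0.075). In PTX the median over these members was 0.01, with 8 higher and 8 lower by at least 1 without overlap (2.41% each).

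Of 209 members in adhesion and matrix genes, 69 rose (33%) and 15 fell (7.18%) in 231T, with a median difference of 0.67. ITGA2, the collagen-binding integrin subunit, rose by 1.95 at gene level (adjusted p = 0.0142), LOX by 1.49 (adjusted p = 0.00686) and TGFBI, a matrix protein induced by TGF-beta, by 0.77 (adjusted p = 0.00391). SPARC, a matrix-binding glycoprotein, had 0.04 in 231T (adjusted p = 0.875) and -0.46 in PTX. Of 153 members in cytokine and receptor genes, 55 rose (35.9%) and 31 fell (20.3%), with a median difference of 0.56. At gene level IL6ST was up by 2.14 (adjusted p = 0.00736) and IL7R, the interleukin-7 receptor, by 1.09 (adjusted p = 0.00895). The 25 members of PDGFRB, a receptor of platelet-derived growth factor, included 19 of the 31 that fell. Of its 46 exon parts only these 25 met the minimum, and no gene-level value stands beside them. Their medians were 0.23, 0.05 and 0.03 in 231T, against 1.44, 1.66 and 1.48 in control. In 231T they thus lay near the array medians, which were below 5 as deposited.

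Signalling genes had 252 members, of which 60 rose (23.8%) and 17 fell (6.75%), with a median difference of 0.49. Apart from DUSP1, APC, a scaffold that promotes the degradation of beta-catenin, rose by 0.91 (adjusted p = 0.0154) and PIK3R1, a regulatory subunit of phosphoinositide 3-kinase, by 0.53 (adjusted p = 0.0491). EGR1, an immediate early transcription factor, had 0.12 (adjusted p = 0.773). DNA repair genes had 157 members, of which 28 rose (17.8%) and 8 fell (5.1%), with a median difference of 0.27. At gene level MSH3, a mismatch repair protein, rose by 0.60 (adjusted p = 0.036) and POLK, a translesion polymerase, by 0.55 (adjusted p = 0.0472). Of the 21 members in 3 microtubule genes, 2 rose (9.52%) and 1 fell (4.76%), with a median difference of 0.43, and the gene-level rows of TBCA, a tubulin cofactor, and MAP1B, a microtubule-associated protein, did not pass (0.19 and 0.15). RBM27, RASA1 and GTF2H2, which are on these lists, had no singly named exon part.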

How the data were processed

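RNA of 9 samples was hybridised to Affymetrix arrays that read exon parts and junctions. Per the submitters' processing notes, the authors used Affymetrix Expression Console 1.3.1 with RMA, and the deposited values of both tables are on the log2 scale. The genome build is not given in the sources used here. Gene names come from the platform annotation, and 75 old symbols were updated through RefSeq. A probe set with several symbols is left unnamed. Members and lists were chosen with earlier results of these data known.

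Centring subtracted from every array its median over 533139 exon parts of chromosomes 1 to 22. Limma 3.58.1 in R 4.3.3 was fitted to 448953 exon parts and junctions with a mean of at least 5, all 3 groups in 1 fit, with Benjamini-Hochberg adjustment and a threshold of 0.05. The median residual SD of members was 0.45. The gene-level table was fitted in the same way over 18722 transcript clusters. Medians per chromosome code and per window of 100 members were fitted likewise. A run is at least 3 consecutive members. Named parts were those of the 3 longest runs lower in PTX (of 3 runs tied at 6 parts, the one with the larger median difference) and the longest higher, the ends of the longest called runs in 231T, the 2 parts with the largest called difference in each direction and those beside the minimum, plus up to 4 called genes per list and direction. Other runs and genes were named by length of run or size of median difference after their values were seen. The functions were tested on simulated data. Alternatives covered centring, quantile normalization, the minimum, single arrays left out, the fit and the sizes of runs and windows.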

Additional observations from a re-analysis of the deposited data

How the results depend on the processing

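Leaving out each array in turn, calls between PTX and control ranged from 0 to 5 higher and 0 to 17 lower, with 446 to 917 and 497 to 1447 members at an unadjusted p under 0.05. A mean of at least 4 gave 3 higher and 13 lower, a mean of at least 7 gave 15 and 47, exon parts alone gave 28 and 83, and quantile normalization gave 8 higher. A fit of both compared groups alone gave 0 and 0 (617 and 813 at an unadjusted p under 0.05). With a replicate block limma called 0 higher and 0 lower in PTX (573 and 771 at an unadjusted p under 0.05), 2991 higher and 1271 lower in 231T, and kept the chromosome median at 0.45 (adjusted p = 0.0185); same-numbered arrays had correlations of -0.175 to 0.068, so the numbers do not pair the samples. With 1 array left out, lower runs in PTX ranged from 22 to 80 and higher runs from 7 to 51. A run difference of 0.5 gave 66 lower and 39 higher runs, and one of 2 gave 1 and 0. Calls in 231T with 1 array left out ranged from 2414 to 3522 higher and 1048 to 1613 lower, and of PTX against 231T from 843 to 1170 higher and 2282 to 3771 lower. As deposited, 2910 members were lower in 231T, 2744 were higher in PTX than in 231T, the chromosome median difference was 0.06 and 24 windows were higher and 32 lower. A mean of at least 7 gave 821 members higher in PTX than in 231T and 3 lower windows. The chromosome median difference ranged from 0.40 to 0.56 with 1 array left out and was 0.19 in the gene-level table, windows ranged from 28 to 67 higher and 6 to 12 lower, and gene-level calls in 231T from 179 to 273 higher and 119 to 170 lower. Windows of 50 gave 105 higher and 26 lower, and windows of 200 gave 27 and 4, since their number differs. The causes of the other shifts were not tested. The 4 single parts with the largest 231T differences and the 6 named runs kept their direction in every setting in which they were recomputed. As deposited the median 231T difference was -0.14 over members and -0.36 over all exon parts. With quantile normalization it was 0.17 over members and -0.02 over all exon parts. Other single differences were not recomputed. The difference of at least 1 and the gene-level median were chosen after seeing the data.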

Other observations

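Members without a gene name also moved as runs. A run of 17 unnamed parts starting at number 30917 had medians of 4.41 in PTX and 6.81 in 231T, against 4.21 in control, with a median difference of 231T minus control of 2.31. Neighbouring parts of HNRNPH1, an RNA-binding splicing regulator, had unlike values in 231T. Number 29798 had a difference of 2.4 in PTX and -0.01 in 231T (adjusted p = 0.987 by limma), and number 29799 had 2.0 in PTX and 2.48 in 231T (adjusted p = 0.000247). These parts were picked after their values were seen.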
